A study of Homo sapiens with 6 samples.

Results

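The 8 genes described here encode RNA-binding proteins and helicases that act in the making and nuclear export of circular RNA: QKI, ADAR, DHX9, ILF2, HNRNPL, MBNL1, DDX39A and DDX39B. They were chosen by symbol from the 62703 Ensembl gene IDs of the count tables. Each symbol belonged to 1 ID, and all 8 passed the filter on low counts. A circular RNA is a closed loop that forms when the spliceosome joins a downstream splice site back to an upstream one. Back-splicing is favoured when the introns on both sides of the loop are brought together, either by base pairing between inverted repeats or by proteins bound to both introns, and it is hindered by proteins that open or edit such pairs. Finished circles leave the nucleus with the help of DEAD-box helicases that also act in messenger RNA export.

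The cells were SEM, a leukaemia line of B-cell precursors that carries the KMT2A::AFF1 fusion, and their total RNA was sequenced after depletion of globin transcripts. For 3 libraries (KD) a pair of Dicer-substrate duplexes was aimed at the back-splice junction of AK_8_2, which is a circle transcribed from that fusion. For the other 3 (NC) the cells had received a commercial duplex with no target. Both groups went through a reverse and then a forward lipid transfection, and all libraries come from 1 cell line. The comparison of KD with NC asks whether the machinery of circular RNA was present at a different level when this circle was targeted. Counts assigned to a gene pool linear and circular reads of its exons, and no back-splice junction was counted, so neither the silencing of AK_8_2 nor circles of these 8 genes were measured. Fewer cells of a type and less RNA per cell cannot be told apart in such bulk samples.

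KD libraries held 16531673 to 26694160 gene counts and NC libraries 14750579 to 24186646. In replicate 1, 50.03% of KD records and 48.6% of NC records fell outside annotated features, while the share was 11.3% to 17.3% elsewhere. Multiply aligned records reached 31.5% in KD replicate 3 and at most 17.3% in any other library. Mitochondrial ribosomal RNA took 6.79% of the gene counts of KD replicate 3 and at most 1.335% of those of any other library. Of 10 B-cell precursor markers, 8 reached 1 CPM (counts scaled to library size) in every library, among them PAX5, while DNTT and CD24 were below that in most libraries. The summed level of the 10 was 1515 to 2036 CPM in KD and 1568 to 2049 CPM in NC. The summed level of 5 erythroid markers was 0.0525 to 2.59 CPM in KD and 0 to 1.99 CPM in NC. That of 5 myeloid markers was 23.4 to 28.7 CPM in KD and 21.4 to 29.1 CPM in NC. Of these, CSF1R (10.6 to 23.6 CPM) and LYZ (4.83 to 6.25 CPM) were above 1 CPM in every library. Of 5 T-cell markers, TRAC made up nearly all of a summed 76.7 to 92.8 CPM in KD and 82.5 to 87.1 CPM in NC. CD3D, CD3E, CD3G and CD2 had at most 3 counts in each replicate 2 or 3 library. In replicate 1 they had 17 to 26 counts in KD and 25 to 42 counts in NC.

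None of the 8 genes passed the test between KD and NC when all 6 libraries were used. The quasi-likelihood test of edgeR, adjusted by Benjamini-Hochberg over 16929 genes, called 0 genes at an adjusted p under 0.05 (0%), so it called none of the 8. All 8 had an adjusted p of 1.00. At an unadjusted p under 0.05 the test had 52 genes (0.307%), again with none of the 8, and DESeq2 called 1 gene and limma-voom 0, none of them among the 8. The replicate 1 libraries of KD and NC resembled each other, with deviations from the group means correlated at 0.89. Those of replicates 2 and 3 correlated at 0.62 and 0.61 within a number and at 0.59 and 0.55 across numbers. Pairs of KD and NC libraries numbered 2 or 3 therefore rest on the number alone. With this limit, the test was also made with the replicate number as a block (a term for each number). It then called 29 genes (0.171%), of which 24 were higher (0.142%) and 5 lower (0.0295%) in KD, and 0 of the 8 were among them. For none of the 8 did the CPM ranges of the groups separate, while 1.67% of all genes tested were higher and 1.77% lower in KD with no overlap. For 7 of the 8 genes the 95% interval of the fold change lay inside a 1.5-fold change in either direction, which was so for 50.7% of all genes tested. DDX39B was the exception. With the block the same 7 lay inside, against 66.5% of all genes tested. Among genes within 0.5 log2 CPM of each, 28.7% (QKI) to 94.6% (HNRNPL) had a larger blocked standard error than these 7. Over all genes tested it was 92.5% (QKI) to 99.6% (MBNL1), so shares over all genes overstate how unusual the 7 are.

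**Figure D1:**
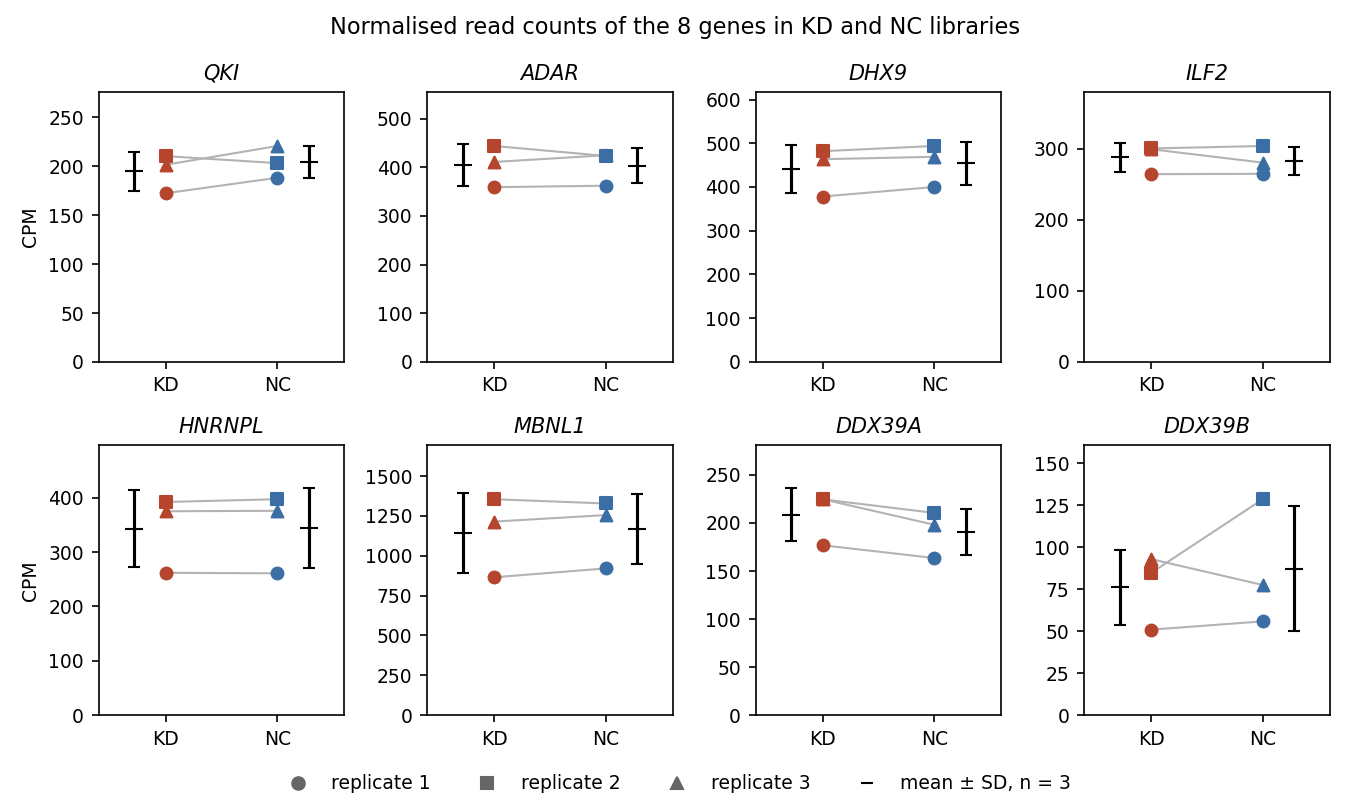
Level of each gene in CPM in the 3 KD libraries (left) and the 3 NC libraries (right), with grey lines joining libraries of the same replicate number and bars giving the mean ± SD (n = 3). The groups overlap for all 8 genes, replicate 1 is the lowest library of each group, and for DDX39B the NC replicate 2 library lies above the other 5.

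DDX39A and DDX39B, the export helicases, did not pass the test, and DDX39B varied more between libraries. They are close paralogs, also called URH49 and UAP56, that load export adaptors onto RNA, and in human cells each has been tied to the export of circles of a different length. The coding sequences, from the longest coding transcripts of GENCODE 29 (DDX39A-201 and DDX39B-214), matched at 1027 of 1284 aligned bases (80.0%). The longest stretch without a difference was 26 bases. It is printed below with 24 bases on either side. Reads confined to this stretch could belong to either gene, while longer reads reach a base that differs. Capitals mark bases that differ, and positions count from the first base of the start codon.

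DDX39A (chromosome 19, coding bases 355 to 428): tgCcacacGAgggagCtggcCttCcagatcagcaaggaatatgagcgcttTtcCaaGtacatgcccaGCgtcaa

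DDX39B (chromosome 6, coding bases 358 to 431): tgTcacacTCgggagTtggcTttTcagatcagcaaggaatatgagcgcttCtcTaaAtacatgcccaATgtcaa

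The 2 sequences differ at 11 of 74 bases in this window. Other paralog pairs were less alike, at 74.4% identity for MBNL1 and MBNL3, 71.9% for MBNL1 and MBNL2, 65.2% for ADAR and ADARB1 and 64.2% for HNRNPL and HNRNPLL, with longest shared runs of 17, 20, 23 and 18 bases.

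DDX39A (ENSG00000123136.15, chromosome 19, 14408819 to 14419383, minus strand, GRCh38) had 177, 224.6 and 224.7 CPM in KD replicates 1, 2 and 3, against 164, 210.4 and 198 CPM in NC replicates 1, 2 and 3. KD was the higher library within each replicate number, but the groups overlapped because KD replicate 1 lay below NC replicates 2 and 3. The mean was 209 ± 27.6 CPM in KD and 191 ± 24.3 CPM in NC (SD, n = 3 each), a log2 fold change of 0.13 with a 95% interval from -0.22 to 0.48. Within pairs 1, 2 and 3 the log2 differences were 0.11, 0.09 and 0.18. In the blocked fit the interval narrowed to 0.03 to 0.23, with an unadjusted p of 0.0126 and an adjusted p of 0.776 (edgeR quasi-likelihood), so DDX39A did not pass. It was the 1 gene of the 8 with an unadjusted p under 0.05 in that fit, a limit that 4.97% of all genes tested met, 2.9% with a higher value in KD. It was also the 1 gene higher in KD in all 3 pairs, as were 13.1% of all genes tested.

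DDX39B (ENSG00000198563.14, chromosome 6, 31530219 to 31542448, minus strand) had 50.95, 84.8 and 93.0 CPM in KD replicates 1, 2 and 3, against 55.9, 129 and 77.6 CPM in NC. The NC replicate 2 library was the highest of the 6. Within pair 1 the log2 difference was -0.13, within pair 2 it was -0.60 and within pair 3 it was 0.26, so the pairs did not share a direction. The mean was 76.2 ± 22.3 CPM in KD and 87.4 ± 37.4 CPM in NC (SD, n = 3 each), a log2 fold change of -0.20 with a 95% interval from -1.004 to 0.61 (-1.06 to 0.73 with the block). Leaving out KD replicate 1 turned the log2 fold change to 0.03, and leaving out NC replicate 2 turned it to 0.21. With the block, leaving out both replicate 2 libraries turned it to 0.06, and leaving out both replicate 3 libraries gave -0.39. The latter was the 1 setting in which a gene of the 8 passed (edgeR quasi-likelihood adjusted p 5.21e-05, where 0.244% of the genes tested passed). Its standard error there was 0.07, although pairs 1 and 2 differed (-0.13 and -0.60). With only those pairs left, that p-value rests mostly on the spread of other genes, not on that of DDX39B. None of the 8 passed with the block and without both replicate 1 libraries (0.0306% of genes passed) or both replicate 2 libraries (0.397%). The blocked standard error of DDX39B was 0.24 on the log2 scale, against a median of 0.06 for the 2098 tested genes within 0.5 log2 CPM of it, of which 0.381% had a larger one. The standard errors of the other 7 genes were 0.04 to 0.05.

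The count of DDX39B may leave out reads from shared exons. In GENCODE 29, which may differ from the annotation used for counting, 84.1% of its 1529 coding bases and 29.7% of its 7007 exonic bases are also exons of ATP6V1G2-DDX39B, a readthrough gene on the same strand. That readthrough gene had 0 counts in all 6 libraries. Counting with htseq-count commonly sets aside reads that fit more than 1 gene as ambiguous, and 2.63% to 5.65% of the records in KD and 2.58% to 5.94% in NC were so classed. The part of this overlap in the spread of DDX39B was not tested. Of the other members, HNRNPL shared 26.9% of its coding bases with the locus AC008982.1 on the same strand, also at 0 counts in all 6 libraries. MBNL1 shared 15.6% of its exonic bases with antisense genes, the larger of which, MBNL1-AS1, had 224 to 343 counts in KD and 227 to 286 counts in NC. Since the strand setting of the counting is not given, sense and antisense reads over those bases cannot be told apart. ILF2 shared 1.89% of its exonic bases, and QKI, ADAR, DHX9 and DDX39A shared none. Annotated retrocopies named after DHX9, ILF2, HNRNPL, DDX39A and DDX39B had at most 48 counts in any library, against 899 to 12266 for their parents.

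**Figure D2:**
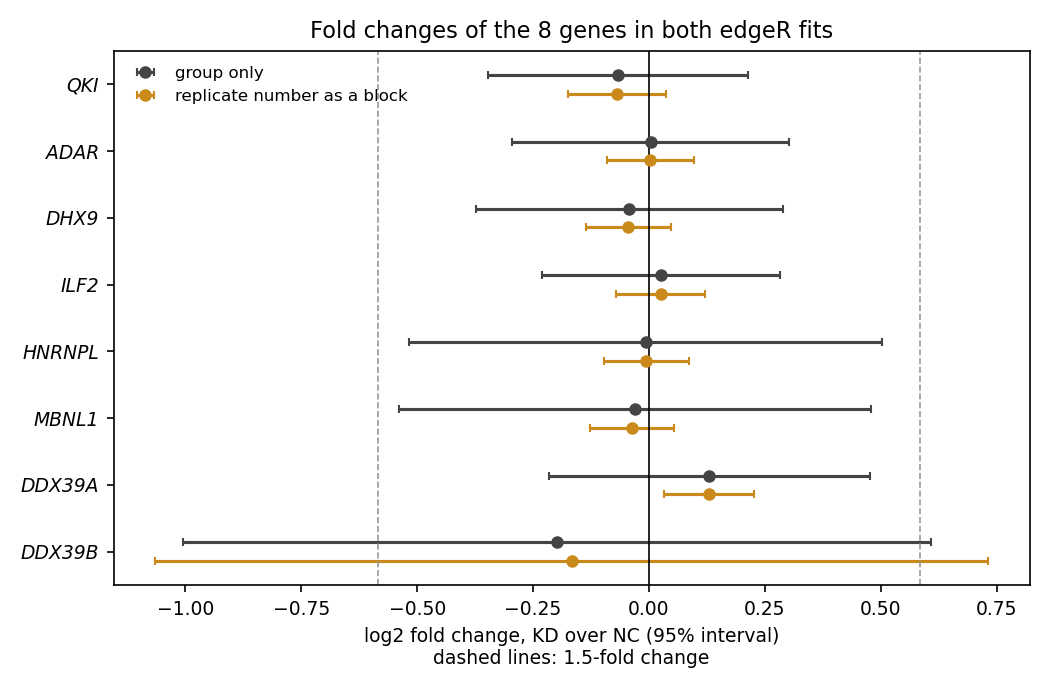
Log2 fold change of each gene, KD over NC, with its 95% interval, with group as the only term (dark) and with the replicate number as a block (orange). Both intervals of DDX39B reach past a 1.5-fold change (dashed lines), while those of the other 7 genes lie inside it, and the blocked interval of DDX39A is the 1 that does not cover 0.

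QKI and MBNL1 bind the introns that flank an exon and can bring them together. QKI, the human Quaking protein of the STAR family, drives the formation of many circles when epithelial cells become mesenchymal. QKI (ENSG00000112531.17, chromosome 6, 163414000 to 163578596, plus strand) had 172, 210.4 and 202 CPM in KD replicates 1, 2 and 3, against 188, 203 and 221 CPM in NC. KD was the lower library in pairs 1 and 3 and the higher one in pair 2, with log2 differences of -0.13, 0.05 and -0.13 in pairs 1, 2 and 3. Its log2 fold change was -0.07, with a 95% interval from -0.35 to 0.21 (-0.17 to 0.04 with the block).

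MBNL1, or muscleblind, is a splicing regulator whose own gene gives rise to a circle, and in flies the protein promotes the circle of its own transcript. MBNL1 (ENSG00000152601.18, chromosome 3, 152243828 to 152465780, plus strand) had 865, 1355 and 1214.5 CPM in KD replicates 1, 2 and 3, against 921, 1328 and 1255.5 CPM in NC. Both replicate 1 libraries were lower than the other 4. The log2 fold change was -0.03 with an interval from -0.54 to 0.48 (-0.13 to 0.05 with the block), and the differences within pairs 1, 2 and 3 were -0.09, 0.03 and -0.05.

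HNRNPL is a heterogeneous nuclear ribonucleoprotein that binds CA-rich RNA and regulates both splicing and back-splicing. HNRNPL (ENSG00000104824.18, chromosome 19, 38836388 to 38852347, minus strand) had 262, 392 and 375 CPM in KD replicates 1, 2 and 3, against 261, 397 and 376 CPM in NC. Libraries of the same number lay close together, with log2 differences of 0.0054, -0.018 and -0.0033 in pairs 1, 2 and 3. Its log2 fold change was -0.01 (95% interval -0.52 to 0.50 without and -0.10 to 0.09 with the block). Between replicate numbers it moved more, since the replicate 1 library lay below the mean of the other 2 by a log2 difference of -0.55 in KD and -0.57 in NC.

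ADAR, DHX9 and ILF2 all bind double-stranded RNA or work with proteins that do. ADAR edits adenosine to inosine in paired repeats, and loss of it raises the level of many circles. ADAR (ENSG00000160710.18, chromosome 1, 154582057 to 154628013, minus strand) had 359, 444 and 411 CPM in KD replicates 1, 2 and 3, against 362, 423 and 425 CPM in NC. The groups overlapped, and the differences within pairs 1, 2 and 3 were -0.01, 0.07 and -0.05 on the log2 scale. The log2 fold change was 0.00 (95% interval -0.29 to 0.30 without and -0.09 to 0.10 with the block). A gene count adds the constitutive and the interferon-inducible form of ADAR together.

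DHX9 is an RNA helicase that unwinds paired Alu repeats and interacts with the interferon-inducible form of ADAR. DHX9 (ENSG00000135829.17, chromosome 1, 182839369 to 182887751, plus strand) had 378, 482 and 463 CPM in KD replicates 1, 2 and 3, against 399.9, 494 and 469 CPM in NC. It was the 1 gene of the 8 that was lower in KD in all 3 pairs, as were 12.6% of all genes tested, with log2 differences of -0.08, -0.04 and -0.02. The log2 fold change was -0.04, and neither interval (-0.37 to 0.29 without and -0.14 to 0.05 with the block) left out 0.

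ILF2, also called NF45, is a nuclear factor that acts in complexes bound to double-stranded RNA, which can favour back-splicing. ILF2 (ENSG00000143621.17, chromosome 1, 153661788 to 153671048, minus strand) lies 0.911 Mb from ADAR on the same chromosome. It had 264, 301 and 299.6 CPM in KD replicates 1, 2 and 3, against 265, 304 and 281 CPM in NC. With a coefficient of variation of 6.38% over the 6 libraries it was the steadiest of the 8, while DDX39B had 34.5%. Its log2 fold change was 0.03 (95% interval -0.23 to 0.28 without and -0.07 to 0.12 with the block).

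Most of the variation of these genes followed the replicate number, not the group. All 8 were lower in replicate 1 than in the mean of replicates 2 and 3 in both groups, by log2 differences of -0.18 to -0.80 in KD and -0.14 to -0.84 in NC. The same held for 41.1% of all 16929 genes tested, but for 83.4% of the 2833 protein-coding genes at least as abundant as the lowest of the 8, so that a low replicate 1 was common at these levels. The medians were -0.33 in KD and -0.29 in NC for the 8 genes, against -0.25 and -0.24 for those 2833. The replicate number took 77.3% (QKI) to 99.96% (HNRNPL) of the sum of squares of log2 CPM of a gene, and the group took 0.0106% (HNRNPL) to 14.2% (DDX39A). The medians over all genes tested were 81.1% and 3.07%. The replicate number has more levels than the group, so its share tends to be the larger even without an effect. The share does not tell a low replicate 1 from a difference between replicates 2 and 3. DDX39B and QKI kept the largest remainder, 15.5% and 13.5%, against a median of 10.4% over all genes tested. The replicate 1 libraries were also those with about 50% of records outside annotated features. The part of this in their lower values was not tested.

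**Figure D3:**
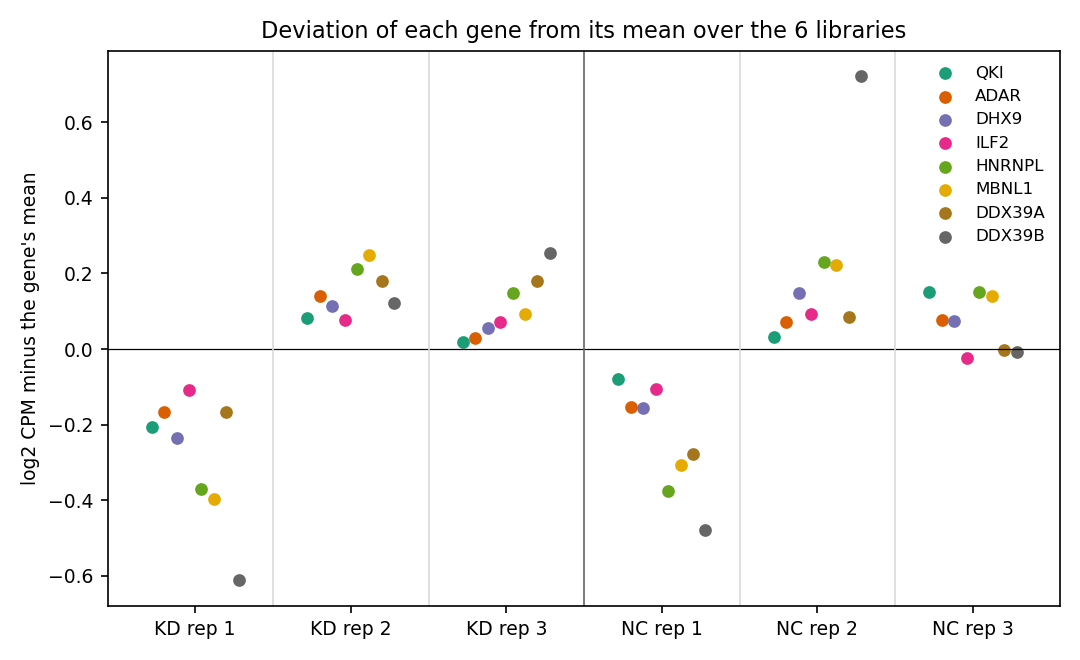
Log2 CPM of each gene minus its own mean over the 6 libraries, with KD libraries left and NC libraries right. All 8 genes lie below 0 in both replicate 1 libraries, and DDX39B in NC replicate 2 lies farthest above.

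Per length of exon, ILF2 and MBNL1 had the highest levels of the 8 in SEM cells and DDX39B and QKI the lowest. The mean level over the 6 libraries, in CPM per kilobase (kb) of all annotated exons, was 125 for ILF2 and 116 for MBNL1, followed by DHX9 (79.3), DDX39A (52.0), HNRNPL (50.4) and ADAR (41.7). DDX39B (11.7) and QKI (11.5) came last. Neighbours in this order overlapped in their ranges over libraries, except that DHX9 (67.0 to 87.5) lay above DDX39A (42.6 to 58.5) and ADAR (37.0 to 45.8) above DDX39B (7.27 to 18.4). In NC libraries 2.07% of 12242 protein-coding genes lay above ILF2, 2.25% above MBNL1, 6.94% above ADAR and 29.1% above QKI. The order depends on the length used, since QKI has 17368 exonic bases over all its transcripts and 9463 in its longest. Per kb of the longest transcript, MBNL1 was first (179), then ILF2 (149.9), HNRNPL (111), DHX9 (106), DDX39A (105), ADAR (56.8), QKI (21.1) and DDX39B (15.9). DDX39B and QKI were the lowest pair by both lengths, and the level of DDX39B leaves out any reads set aside over its shared coding bases. The same limit holds for HNRNPL. It may also hold for MBNL1 and ILF2 over exonic bases shared with genes on the opposite strand.

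**Figure D4:**
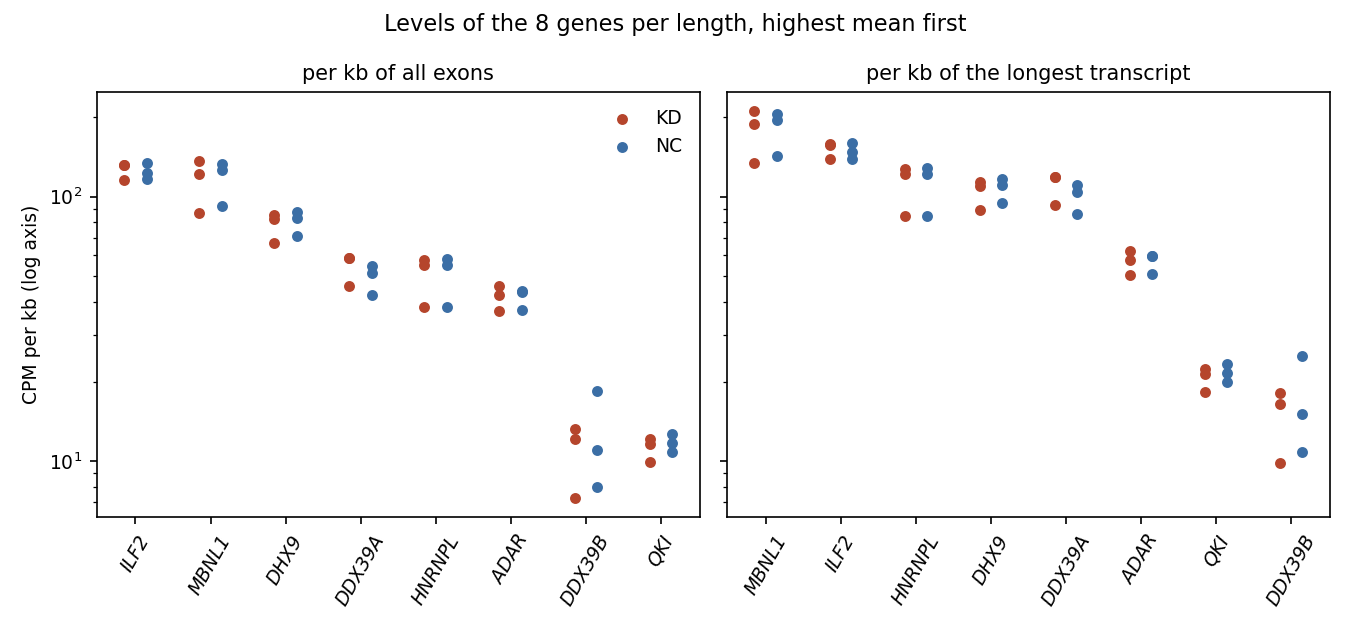
Level of each gene in CPM per kb on a log axis, by the length of all exons (left) and of the longest transcript (right), with the 3 KD libraries (red) left of the 3 NC libraries (blue) for each gene. ILF2 and MBNL1 are highest and DDX39B and QKI lowest by both lengths.

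Genes with a similar profile were sought among 13681 genes with a symbol and at least 1 CPM, by the root mean square distance between log2 CPM values, each centred on its own mean over the 6 libraries. The nearest gene was HPRT1 for DHX9 (0.0084), PSMB2 for MBNL1 (0.0090), UBE2C for HNRNPL (0.012) and PSMB4 for DDX39A (0.014). For ADAR it was MAPKAP1 (0.016), for ILF2 BLOC1S6 (0.016), for QKI RFX7 (0.022) and for DDX39B WDR90 (0.051). The 8 genes were not each other's closest neighbours. The nearest pair among them, HNRNPL and MBNL1, lay 0.041 apart, with 94 genes nearer to HNRNPL and 58 nearer to MBNL1. The 6 libraries of a profile share their depth and replicate number, so the distances are a description.

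No tested gene of 4 wider lists of circular RNA factors passed. In each of the 4 lists the tests of edgeR (with and without the block), DESeq2 and limma-voom called 0 genes, and 0 had an unadjusted p under 0.05. Over all genes tested edgeR called 0% without and 0.171% with the block. At an unadjusted p under 0.05 edgeR had 0.307% of all genes tested without and 4.97% with the block. DESeq2 had 51 and limma-voom 48 of the 16929 genes there, so few hits were available outside the blocked fit. All 10 paralogs and partners of the 8 genes were tested, and 0 passed with or without the block. Their median blocked log2 fold change was -0.02, against -0.02 for the 8 genes and -0.01 for all genes tested. MBNL3, a muscleblind paralog, had 106 ± 12.6 CPM in KD and 116 ± 14.7 CPM in NC (SD, n = 3 each), a blocked log2 fold change of -0.12. The editing enzyme ADARB1 stood at -0.10. Per kb of exon in NC, MBNL3 reached 9.47 CPM and MBNL2 2.71 CPM against 117 for MBNL1, ADARB1 4.44 against 41.6 for ADAR, and HNRNPLL 1.18 against 50.5 for HNRNPL.

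Other proteins tied to back-splicing, such as SFPQ and core spliceosome components, were tested for 20 of 23 genes. None passed with or without the block, the blocked log2 fold changes ran from -0.08 to 0.05, and the 95% intervals of all 20 lay inside a 1.5-fold change with the block, against 66.5% of all genes tested. The same held for 10 of 10 paralogs and partners and for 18 of 21 export genes. These counts were not set against genes of like level. SRSF1, a serine- and arginine-rich splicing factor, stood at -0.08. Of 23 genes of nuclear RNA export 21 were tested and 0 passed with or without the block. The adaptor ALYREF, which DDX39B loads onto RNA, had 0.10 and the exportin XPO1 -0.08. In this list 7 of 21 genes were higher in KD in all 3 pairs and 2 lower, against 13.1% and 12.6% of all genes tested, with blocked log2 fold changes of -0.50 to 0.24 and a median of -0.01. The lowest value belonged to ZC3H11A, chosen after its value was seen, which had 22, 27 and 19 counts in KD replicates 1, 2 and 3 and 39, 30 and 26 counts in NC.

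The 17 genes of turnover, sensing and translation of circular RNA were all tested, and none passed with or without the block. Their blocked median was -0.01, and 16 of 17 blocked intervals lay inside a 1.5-fold change, against 66.5% of all genes tested. This count, too, was not set against genes of like level. G3BP1, a stress granule protein that binds structured RNA, stood at -0.06 and UPF1, the helicase of nonsense-mediated decay, at -0.05. EIF2AK2 (PKR), a kinase activated by double-stranded RNA and held inactive by circles, had 218 ± 9.93 CPM in KD and 214 ± 23.4 CPM in NC (SD, n = 3 each). It was added after its values were seen.

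**Figure D5:**
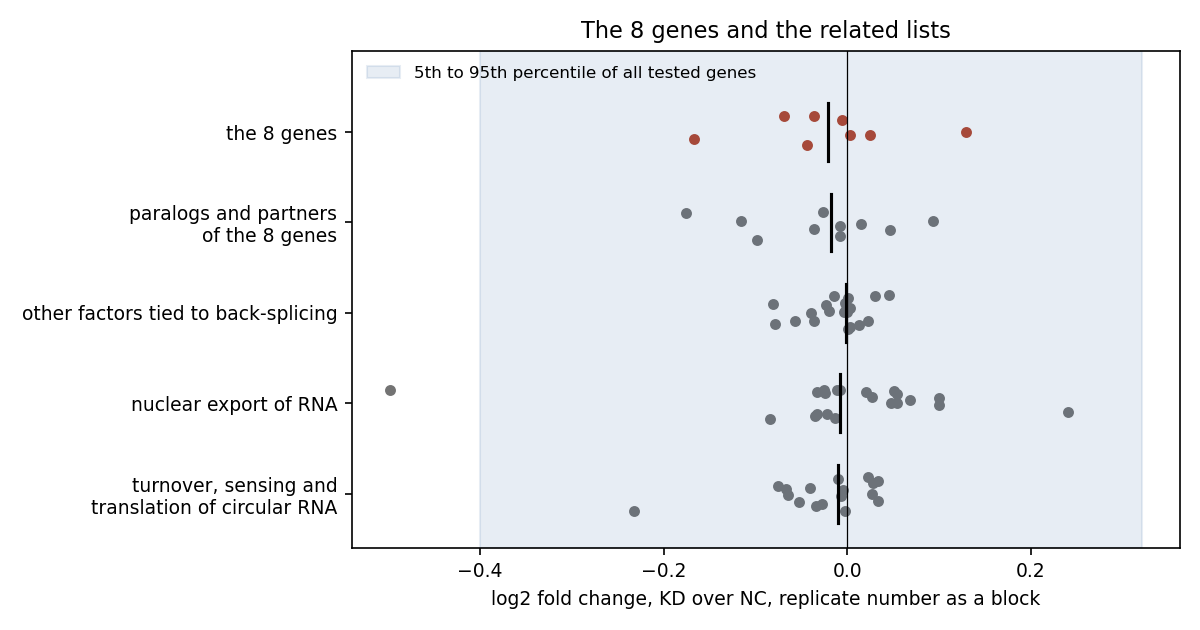
Blocked log2 fold change, KD over NC, of the 8 genes (red) and of the tested genes of 4 related lists (grey), with black lines at each list's median. All 5 medians lie at or just below 0, and all genes but ZC3H11A lie inside the band from the 5th to the 95th percentile of all genes tested (-0.40 to 0.32).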

How the data were processed

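Total RNA libraries of SEM cells, 3 KD and 3 NC, were sequenced. The authors deposited 1 table of raw read counts for each library, by Ensembl gene, with 5 lines that name no gene. The submitters' processing notes list HTSeq 0.11.1, STAR 2.7.10a, FastQC 0.11.8, DESeq2 and the hg38 build. Annotation release, counting mode and strand setting: not given in the sources used here. The summary lines, 39.8% to 66.5% of the records of a library, entered neither library sizes nor tests. Symbols came from a name table holding 62686 of the IDs, and positions and lengths from GENCODE 29 (GRCh38), holding 58264.

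KD and NC were compared with edgeR 4.0.16 in R 4.3.3 (filterByExpr, TMM, robust quasi-likelihood fit, group as the only term, Benjamini-Hochberg over all genes tested); fold changes and 95% intervals come from that fit, and pair differences from log2 CPM with a prior count of 2. The fits were tried on simulated counts. Those varied less between libraries of a group than the real counts, so they do not show how the fit with group alone performs here. DESeq2 1.42.0, limma-voom (limma 3.58.1), other size factors, no filter and left-out libraries were alternatives. Totals of 14750579 to 26694160 counts limit the precision of low genes. The labels call the replicates independent without naming separate cultures, so p-values measure the spread between these libraries, which may be technical. No library of a group repeated another (chi-square of counts over its degrees of freedom 20.2 to 82.0). Deviations from the group means correlated at 0.89, 0.62 and 0.61 between same-numbered KD and NC libraries, each above the limit of 0.1, so blocked values are given; the labels state no pairing, and unlike-numbered replicates 2 and 3 correlated at 0.59 and 0.55.

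The 8 genes and the lists were chosen with earlier results of these data known. All 8 were named, and each list, having no called gene, is represented by the 2 lowest blocked p-values. A gene that this rule names is not reported here.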

Additional observations from a re-analysis of the deposited data

How the results depend on the processing

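The count of 0 called genes held with DESeq2 size factors, with no filter on low counts, with limma-voom, and, without the block, with each library or each replicate number left out. DESeq2 called 1 gene. The replicate number as a block gave 29 calls, and with both libraries of replicate 1, 2 or 3 left out it gave 5, 119 and 73, with 16344, 29982 and 29966 genes tested. For each of the 8 genes 17 alternatives were run. Of the 40 fold changes from settings that kept all libraries, 1 changed sign, that of ADAR, at -0.01 with no filter; with the block and without replicate 2 it was -0.05. Leaving out libraries changed the sign in 25 of 96 values. The log2 fold changes then ran from -0.16 to 0.03 for QKI, -0.10 to 0.09 for ADAR, -0.14 to 0.06 for DHX9, -0.04 to 0.10 for ILF2, -0.17 to 0.16 for HNRNPL, -0.20 to 0.14 for MBNL1, 0.03 to 0.24 for DDX39A and -0.45 to 0.21 for DDX39B. DDX39A thus kept its direction in all 17, and 1 of the 136 values passed the threshold, that of DDX39B with the block and without replicate 3. Per kb of the longest transcript the level of all 8 genes moved. Using gene count totals as library sizes moved no level per kb by more than its spread over libraries. Summing IDs of the same symbol changed nothing, since each symbol had 1 ID.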

Other observations

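The genes of the related lists that were too low to test were counted mostly in the replicate 1 libraries. IGF2BP1, an RNA-binding protein of fetal tissue tied to export and stability of RNA, had 80, 6 and 2 counts in KD replicates 1, 2 and 3 and 85, 2 and 6 counts in NC. RBM20, a splicing factor of heart muscle, had 89, 5 and 4 counts in KD and 78, 1 and 1 counts in NC. The neuronal splicing factor NOVA2 had 46, 5 and 4 counts in KD and 37, 2 and 6 counts in NC, and the epithelial splicing factor ESRP1 had 35, 2 and 0 counts in KD and 30, 2 and 6 counts in NC. LUZP4 had at most 6 counts in any library. Over the whole series, 53121 genes had a count in KD replicate 1 and 52077 in NC replicate 1, against 30641 to 32311 in the other libraries. Counts found mainly in replicate 1 are therefore not particular to these factors. All 5 genes had their highest count in a replicate 1 library of each group, the libraries with the largest share of records outside annotated features. The part of that share in these counts was not tested.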
